A study of Mus musculus with 4 samples.

Results

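The receptors described here are 10 cell-surface receptors that steer leukocytes through blood, liver and lymphoid organs: the chemokine receptors Cxcr3, Cxcr4, Cxcr5, Cxcr6, Cx3cr1, Ccr2, Ccr7 and Ccr9, and the sphingosine 1-phosphate receptors S1pr1 and S1pr5. They were chosen by symbol for these roles, 10 of the 32285 genes of the count matrices, and all 10 were found. The data were 10x Genomics 5′ single-cell RNA-seq libraries of CD45+ cells (CD45 marks nearly all leukocytes) sorted from the livers of female C57BL/6 mice, 4 libraries in all and 1 for each group. Young WT mice were about 8 weeks old and untreated. The other groups, aged 36 weeks, had received 25 mg/kg of the liver carcinogen diethylnitrosamine (DEN) on day 14 of life and, after weaning on day 21, a choline-deficient diet with 60% fat (CDHFD). They were WT (DEN-CDHFD WT), lacked miR-146a (DEN-CDHFD miR-146a-/-) or lacked both miR-146a and Ccl5 (DEN-CDHFD DKO). The deletions were germline, present in every cell of the body, and the number of mice behind a library was not stated in the sources used here. Age, DEN and diet differed together between both WT libraries, so their effects cannot be told apart. The miR-146a-/- library entered a pair of comparisons, with DEN-CDHFD WT and with DKO, so those share that library, as the first and the second share the DEN-CDHFD WT library.

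Chemokine receptors are G protein-coupled receptors that move a cell toward its ligand, and a cell's set of receptors decides which tissues it can enter and where in them it settles. The sphingosine 1-phosphate receptors act in the opposite sense, drawing lymphocytes out of tissues into blood and lymph, where their lipid ligand is abundant. In the liver, CXCR6 and its ligand CXCL16 are known for holding NKT cells and resident T cells and innate lymphoid cells in the sinusoids, the wide capillaries of the organ.

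The knockouts were checked first. Ccl5, the chemokine deleted in the DKO mice, had a level in PD-1+ CD8 T cells of 17566 CPM in young WT, 40948 in DEN-CDHFD WT, 37026 in miR-146a-/- and 222 in DKO. A UMI, or unique molecular identifier, marks 1 captured RNA molecule, and CPM is the usual scaling of the UMIs of a gene to a fixed total of UMIs in the same cells. The low Ccl5 level fitted the DKO label. The matrices hold no count of mature miR-146a, so that deletion was not checked here.

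Cells were placed into 19 classes by gates on marker genes that include none of the 10 receptors. Of 10283 kept cells in young WT, 8329 in DEN-CDHFD WT, 7824 in miR-146a-/- and 9850 in DKO, the gates left 3298, 3205, 2026 and 2760 without a class. In 71 sums of a class in a library, none had more markers of another class than of its own among its 10 leading genes. The check was weak, since several sums, among them B-cell-like cells in all 4 libraries and ILC1-like cells in the treated ones, had no marker of their own there either, and some NKT-like and Treg-like sums had as many of another class. NK-like and ILC1-like cells were separated by a score, and 46 of 1401, 38 of 1164, 20 of 754 and 35 of 1128 such cells lay within 1 UMI of its boundary. The libraries shared 109 to 150 cell barcodes pairwise. With 1 library per group there was no replicate and no test, and each 95% interval given below, Poisson for a CPM and exact binomial for a share, covers counting error only.

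A sequence feature of the receptors is shown first, because the miR-146a-/- and DKO mice lacked miR-146a. The capitals in the mature miR-146a-5p (chr11:43374435-43374456, minus strand, RefSeq GRCm38) mark its seed, bases 2 to 8, which pairs with target RNAs. Of the 10 receptors, 1, Cxcr6, held the complementary 7 bases, AGTTCTC, in its 3′ UTR, as did 11.1% of 21001 genes with an annotated 3′ UTR. The stretch printed below (chr9:123811266-123811293, plus strand, GRCm38) holds this match, with capitals marking the 7 bases. The first of the 7 was base 289 of the 769 bases of that UTR. The shorter GTTCTC stood in 4 of 10 receptors (Ccr7, Ccr9, Cx3cr1 and Cxcr6) and in 29.5% of genes. A match is a description and not a measured site.
miR-146a-5p: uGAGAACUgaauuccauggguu
Cxcr6 3′ UTR match: ctctagagatctcaAGTTCTCtttttac

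Of the 10 genes, 6 (Cxcr5, Cxcr6, Cx3cr1, Ccr2, Ccr9 and S1pr5) lie on chromosome 9. Cxcr6 (chr9:123806475-123811760, plus strand) lies within Fyco1 on the opposite strand. The annotated spans of Cx3cr1 (chr9:119901616-120069879, minus strand) and Ccr9 (chr9:123678439-123784330, plus strand) overlap 3 and 2 other genes of the same strand, so some of their UMIs could belong to a neighbour. Promoters were available for 7 receptors, not for Cxcr5, Ccr7 and S1pr1. In the 250 bases before the RefSeq start, 18 motifs were searched on both strands.

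Of these, 4 were marked after their matches had been seen: the GC box, the TATA box, the core site of T-box factors such as T-bet, and the core site of RUNX factors. The GC box reads GGGCGG and stood in 32.7% of 32851 promoters of all genes, while the TATA box was found in 12.4% of them and reads TATAAA. For T-box factors the core was TCACAC, present in 12.3% of promoters, and for RUNX factors it was the sequence TGTGGT, present in 14.0%. The other searched motifs were a longer T-box site that contains the core (in 3.33% of promoters), the KLF core (52.0%) and a longer KLF site (1.21%), the E-box (6.02%), the ETS site (6.91%) and its core (19.7%), and the sites of AP-1 (4.46%), STAT (0.268%), NF-kB (0.140%), CRE (1.55%, and 6.47% for its core, which it contains), CCAAT (33.8%), NRF1 (2.26%) and GATA factors (9.99%). Of these, the KLF core stood in Ccr9, Cx3cr1, Cxcr4 and S1pr5, the ETS core in Cxcr3 and S1pr5, CCAAT in Cx3cr1, NRF1 in Cxcr4 and GATA in Ccr2, and the others in no receptor. The promoters below are those of Cxcr3 and Cxcr6, which were both highest by the mean over libraries in NKT-like cells, and of Cxcr4, which was lower in miR-146a-/- than in DEN-CDHFD WT in each class compared. Capitals mark the 4 motifs, and 4 bases of the Cxcr4 promoter lie in overlapping copies of the TATA box. The RUNX core stood in Cxcr3, Cxcr6 and Cx3cr1, the T-box core in Cxcr3, the GC box in Cxcr4 and S1pr5, and the TATA box in Cxcr4. The Cxcr3 window (chrX:101734148-101734397, minus strand) lies partly inside the GENCODE model of the gene, whose start is further upstream. Those of Cxcr6 (chr9:123806227-123806476, plus strand) and Cxcr4 (chr1:128592300-128592549, minus strand) end within 10 bases of the GENCODE start of their genes. All are GRCm38 and written 5′ to 3′.
Cxcr3 promoter: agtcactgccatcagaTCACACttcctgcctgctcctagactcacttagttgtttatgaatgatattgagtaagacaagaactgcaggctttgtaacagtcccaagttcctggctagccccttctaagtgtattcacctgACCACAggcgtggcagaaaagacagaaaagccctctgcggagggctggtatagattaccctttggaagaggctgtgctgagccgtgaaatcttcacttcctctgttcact
Cxcr6 promoter: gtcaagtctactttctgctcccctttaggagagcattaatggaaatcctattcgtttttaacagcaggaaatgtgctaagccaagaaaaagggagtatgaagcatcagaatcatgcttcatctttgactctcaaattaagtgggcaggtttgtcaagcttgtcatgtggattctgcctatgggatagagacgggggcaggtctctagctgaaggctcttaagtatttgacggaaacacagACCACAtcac
Cxcr4 promoter: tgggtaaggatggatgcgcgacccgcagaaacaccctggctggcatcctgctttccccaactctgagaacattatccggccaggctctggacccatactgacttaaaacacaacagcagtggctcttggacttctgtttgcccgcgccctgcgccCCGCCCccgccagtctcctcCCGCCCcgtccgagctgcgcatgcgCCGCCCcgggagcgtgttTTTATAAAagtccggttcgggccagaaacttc

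Cxcr6, the receptor for CXCL16, was highest, by the mean over libraries, in NKT-like cells, PD-1+ CD8 and non-naive CD4 T cells. In NKT-like cells its level was 908 CPM in young WT (95% interval 891 to 925), 652 in DEN-CDHFD WT (611 to 694), 564 in miR-146a-/- (522 to 609.6) and 524 in DKO (486 to 566). Young WT was thus the highest and the treated libraries followed in the order WT, miR-146a-/- and DKO, the last 2 with overlapping intervals. In PD-1+ CD8 T cells the order was another: 444 CPM in young WT, 671 in DEN-CDHFD WT, 477 in miR-146a-/- and 493 in DKO, so the DEN-CDHFD WT library stood above the rest. The ranges over libraries of the NKT-like and PD-1+ CD8 classes overlapped.

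ILC1-like cells, liver-resident relatives of NK cells, held Cxcr6 at 419, 453, 371 and 480.01 CPM in the same order of libraries, and NK-like cells at 17.3, 4.32, 4.83 and 8.32. The same receptor therefore set both innate classes apart in each library. Naive-like CD8 T cells held 107, 88.4, 142 and 94.9 CPM, and B-cell-like cells at most 7.77. NKT-like cells supplied 38.1% of all Cxcr6 UMIs in young WT, whereas PD-1+ CD8 T cells supplied 33.5% in DEN-CDHFD WT, 37.3% in miR-146a-/- and 30.2% in DKO. Cells without a class supplied 32.6%, 39.4%, 26.8% and 32.2%, more than PD-1+ CD8 T cells in DEN-CDHFD WT and DKO. The class shares depend on the number of cells in each class, 1493 NKT-like in young WT and 161, 128 and 150.0 in the treated libraries.

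Shares of cells depend on depth, so 2000 UMIs were drawn without replacement from every cell (thinning), and cells with fewer UMIs did not enter. After thinning, 77.5% of 1464 NKT-like cells in young WT had a Cxcr6 UMI (interval 75.3% to 79.6%), 66.7% of 159 in DEN-CDHFD WT, 61.7% of 128 in miR-146a-/- and 55.4% of 148 in DKO. Before thinning the shares were 93.7%, 88.2%, 94.5% and 80.0%, at median depths of 7318, 8385, 7954 and 7582 UMIs, and thinning left out 29, 2, 0 and 2 cells. In classical monocyte-like cells, which should lack the receptor, thinned shares were 0% of 31, 0% of 137, 0.420% of 238 and 0.265% of 378, at median depths of 12923, 10452, 17099 and 17840.0 UMIs. The share of Cxcr6-bearing NKT-like cells stood far above this background in each library.

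Cxcr3, the receptor for the interferon-induced ligands CXCL9 and CXCL10, was spread over more T cell classes. Its level in NKT-like cells was 393 CPM in young WT, 288 in DEN-CDHFD WT, 406 in miR-146a-/- and 325 in DKO, and the class was the highest in 2 of 4 libraries. PD-1- non-naive CD8 T cells held 359, 304, 324 and 342 CPM, and non-naive CD4 T cells 374, 298, 304 and 346, so the 3 leading classes overlapped over the libraries. PD-1+ CD8 T cells held 297, 196, 188 and 241 CPM, less than PD-1- non-naive cells in each library. The receptor was also present in pDC-like cells, plasmacytoid dendritic cells that make type I interferon, at 99.1 to 111 CPM, and in cDC1-like cells at 76.7 to 97.6. Cxcr3 in B-cell-like cells was 21.4, 46.5, 61.8 and 43.4 CPM.

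**Figure D1:**
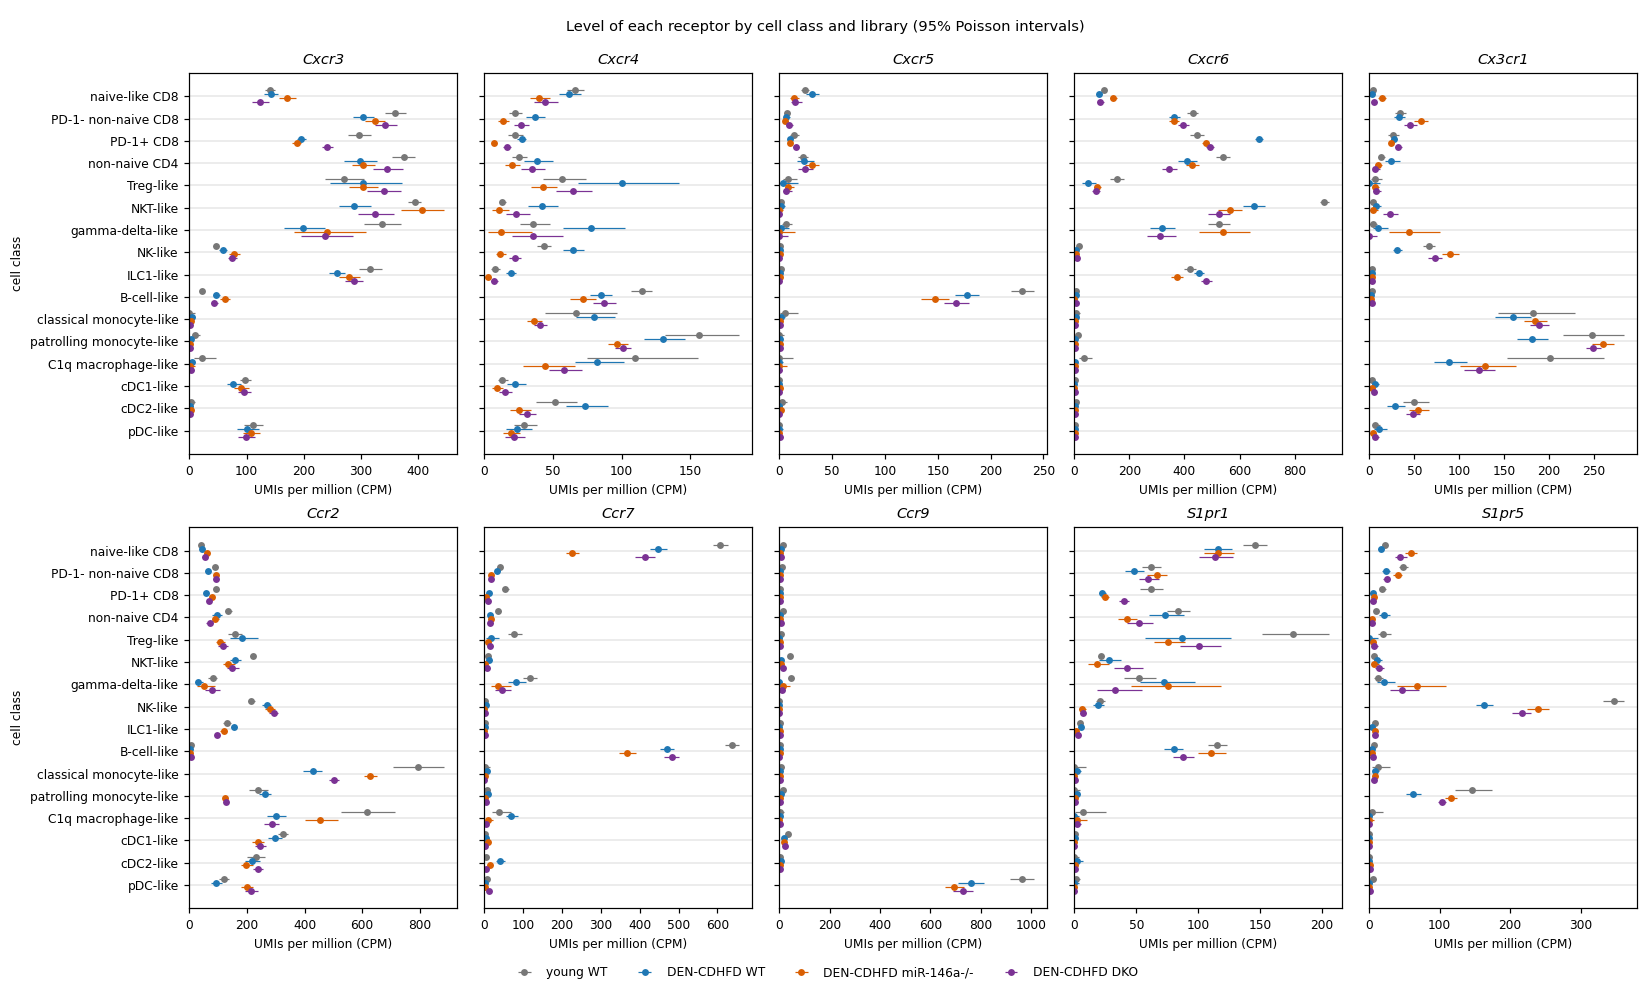
Level of each of the 10 receptors (CPM, horizontal axes starting at 0 and scaled for each gene) in the 16 cell classes with at least 20 cells in all 4 libraries (vertical axis). Points are libraries, coloured by group, and bars are exact 95% Poisson intervals. Ccr9 was high in pDC-like cells and S1pr5 in NK-like and patrolling monocyte-like cells. Cxcr6 was high in NKT-like, gamma-delta-like, PD-1+ CD8, PD-1- non-naive CD8, non-naive CD4 and ILC1-like cells.

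Cxcr4, the receptor for CXCL12 that holds leukocytes in bone marrow and tissue niches, was highest in patrolling monocyte-like cells among the 16 classes with values in all libraries. Its level there was 157 CPM in young WT (131 to 186), 130.4 in DEN-CDHFD WT (116 to 146), 96.9 in miR-146a-/- (89.8 to 104) and 101 in DKO (95.5 to 107). B-cell-like cells held 114, 84.9, 71.6 and 87.3 CPM, and Treg-like cells 56.5, 100.1, 42.8 and 64.3. Neutrophil-like cells, with too few cells for a value in both WT libraries, held 75.9 CPM in miR-146a-/- and 123 in DKO, the latter above the patrolling monocyte-like cells of DKO. In NK-like cells the level was 43.1 CPM in young WT, 64.8 in DEN-CDHFD WT, 11.5 in miR-146a-/- and 22.0 in DKO, and in PD-1+ CD8 T cells 22.1, 27.1, 6.94 and 16.4. DEN-CDHFD WT was the highest and miR-146a-/- the lowest library in both classes.

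Ccr7, Cxcr5 and S1pr1 guide lymphocytes through lymphoid organs. Ccr7, which brings naive T cells, B cells and migrating dendritic cells into lymph nodes, had a level in B-cell-like cells of 638 CPM in young WT, 469 in DEN-CDHFD WT, 368 in miR-146a-/- and 482 in DKO. Naive-like CD8 T cells held 608, 448, 227 and 413 CPM, so young WT was the highest and miR-146a-/- the lowest library in both classes. Mature DC-like cells, with too few cells for a value in young WT, held 3448, 1898 and 1936 CPM, above each other class of those libraries. In PD-1+ CD8 T cells Ccr7 was 53.3 CPM in young WT and 12.6, 4.86 and 9.46 in the treated libraries.

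Cxcr5, which takes B cells and follicular helper T cells into B cell follicles, was 230.2 CPM (interval 220 to 241), 177, 147 and 168 in B-cell-like cells. Non-naive CD4 T cells held 22.0 to 30.6 CPM and naive-like CD8 T cells 13.6 to 30.9, below the B-cell-like range of 147 to 230.2. B-cell-like cells supplied 65.9%, 53.3%, 44.0% and 57.1% of all Cxcr5 UMIs. In PD-1+ CD8 T cells the level was 13.7, 10.03, 10.1 and 15.6 CPM, against 0 to 0.645 in NK-like cells.

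S1pr1, through which lymphocytes leave tissue along the sphingosine 1-phosphate gradient, was 146 CPM in naive-like CD8 T cells of young WT and 116, 116 and 114 in the treated libraries. Treg-like cells held 177, 87.2, 75.9 and 101 CPM, a range that overlapped the naive-like CD8 one, with 39 such cells in DEN-CDHFD WT. Naive-like CD4 T cells had values in both WT libraries, 264 and 145 CPM. ILC1-like cells were low in each library, at 4.37, 5.08, 1.31 and 2.62 CPM. S1pr1 in PD-1+ CD8 T cells was 61.8 CPM in young WT, 22.7 in DEN-CDHFD WT, 24.6 in miR-146a-/- and 40.1 in DKO, so that young WT was above the treated libraries.

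S1pr5 is the receptor with which mature NK cells and patrolling monocytes leave the bone marrow and lymph nodes. Its level in NK-like cells was 347 CPM in young WT (interval 332 to 362), 163 in DEN-CDHFD WT (152 to 176), 239.6 in miR-146a-/- (224 to 256) and 216 in DKO (203 to 229.8). Patrolling monocyte-like cells held 146, 62.6, 116 and 104 CPM. Young WT was the highest and DEN-CDHFD WT the lowest library in both classes, and the NK-like range lay above the patrolling monocyte-like one. ILC1-like cells held 7.81, 3.45, 7.84 and 8.08 CPM. NK-like cells supplied 62.1%, 42.0%, 29.7% and 28.3% of all S1pr5 UMIs, and patrolling monocyte-like cells 27.4% in miR-146a-/- and 37.1% in DKO, where their number was 761 and 1523 against 88 in young WT.

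After thinning to 2000 UMIs, 49.9% of 882 NK-like cells in young WT had an S1pr5 UMI (46.5% to 53.2%), 27.8% of 485 in DEN-CDHFD WT (23.9% to 32.1%), 34.9% of 373 in miR-146a-/- (30.02% to 39.9%) and 33.1% of 510.0 in DKO (29.1% to 37.4%). Unthinned shares were 79.4%, 55.1%, 62.8% and 62.1% at median depths of 6483, 8133, 9618 and 8328 UMIs, with 16, 3, 6 and 7 cells left out by thinning. B-cell-like cells, taken as background, had thinned shares of 0.771%, 0.462%, 0.959% and 0.472% at median depths of 5552, 6648, 6911 and 6365. Shares and levels thus gave the libraries the same order.

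Cx3cr1, the fractalkine receptor of patrolling monocytes and cytotoxic lymphocytes, was highest in patrolling monocyte-like cells, at 248, 181, 260.1 and 249.4 CPM. Classical monocyte-like cells held 182, 159.5, 185 and 189, so both monocyte ranges overlapped. In NK-like cells the level was 66.0 CPM in young WT, 30.9 in DEN-CDHFD WT, 89.7 in miR-146a-/- and 72.7 in DKO, with DEN-CDHFD WT the lowest library. ILC1-like cells stayed between 2.61 and 3.12 CPM. PD-1- non-naive CD8 T cells held 34.2, 33.1, 57.3 and 45.6 CPM.

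Ccr2, through which classical monocytes leave the marrow toward CCL2, was 793 CPM in classical monocyte-like cells of young WT (709 to 885, 33 cells), 428 in DEN-CDHFD WT (396 to 461), 629 in miR-146a-/- (607 to 652) and 503 in DKO (486 to 519.8). C1q macrophage-like cells held 616, 302, 455 and 285 CPM, overlapping this range, on 31, 91, 54 and 167 cells. Their leading genes differed between libraries, and the part of this in the values of the class was not tested. In patrolling monocyte-like cells Ccr2 was 239.7 and 262 CPM in young and DEN-CDHFD WT and 125 and 127 in miR-146a-/- and DKO. The leading genes of the classical monocyte-like class differed between libraries: Elane, Mpo and Prtn3, genes of granulocyte and monocyte precursors named here after their values were seen, led in miR-146a-/-, and Fn1, Vcan and Chil3 in DEN-CDHFD WT. The part of this make-up in the values of the class, Ccr2 and Cxcr4 included, was not tested. Ccr2 in NK-like cells went from 215 in young WT to 268, 281 and 293 CPM. In pDC-like cells the level was 119 and 94.1 CPM in the WT libraries and 199.98 and 215 in miR-146a-/- and DKO.

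Ccr9, the receptor for the gut and thymus ligand CCL25, was found mostly in pDC-like cells, at 963 CPM in young WT (916 to 1012), 761 in DEN-CDHFD WT (710.4 to 815), 694 in miR-146a-/- (657 to 732) and 728 in DKO (689 to 769). No other class with values in all libraries was above 46.5 CPM. After thinning, 76.8% of 138, 64.7% of 85, 63.6% of 140.0 and 73.1% of 130.0 pDC-like cells had a Ccr9 UMI, and before it 99.3%, 95.3%, 95.8% and 96.9% at median depths of 11984, 12499, 13883 and 13548 UMIs. In NK-like cells, the background class, thinned shares were 0.113% of 882 cells in young WT and 0% of 485, 373 and 510.0 in the treated libraries. Ccr9 was low in T cells, and in some of their classes young WT held more than the treated libraries. NKT-like cells had 44.04 CPM in young WT and 6.74, 7.83 and 15.6 in the treated libraries, and PD-1- non-naive CD8 T cells 10.9 and then 0.919, 1.24 and 2.71.

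Differences between libraries were named by a fixed rule of size: a ratio of CPM of 2 or more either way (log2 ratio with a prior of 0.5 counts), at least 20 UMIs in 1 of both libraries and at least 100 cells of the class in both. A pair could meet the minimum of UMIs through 1 library alone, which limits what counts of pairs past the rule can show. In DEN-CDHFD WT over young WT, which asks how treated 36-week-old livers differ from young ones, 71 pairs of a receptor and a class could be judged in 8 classes. Of these, 5 were higher and 13 lower past the rule, 7.04% and 18.3%. Over all gene and class pairs of that comparison, 2.55% were higher and 2.3% lower. The median log2 ratio over the receptor pairs was -0.33, against -0.01 over all pairs.

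Ccr9 was lower past the rule in the 4 classes in which it could be judged, all of which met the minimum of UMIs through young WT, so few other outcomes were possible. The pDC-like cells, its main class, were not judged because DEN-CDHFD WT held 85 of them, and their levels of 963 and 761 CPM differed by less than the rule. In non-naive CD4 T cells it went from 56 UMIs (15.6 CPM) to 1 UMI (0.699 CPM), a log2 ratio of -3.91 with an interval from -9.81 to -1.94, and in NKT-like cells the log2 ratio was -2.64 (-3.78 to -1.82). S1pr5 was lower in NK-like (-1.08, interval -1.21 to -0.96), ILC1-like (-1.17), PD-1- non-naive CD8 (-1.06) and PD-1+ CD8 cells (-1.92). PD-1+ CD8 T cells also had less Ccr7 (-2.08, -2.42 to -1.74) and S1pr1 (-1.45, -1.73 to -1.16).

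The remaining receptor pairs past the rule were fewer. Cxcr4 was higher in NKT-like (1.67) and ILC1-like cells (1.28), Cxcr3 in B-cell-like cells (1.12), Ccr7 in NK-like cells (1.40, from 12 to 23 UMIs) and S1pr5 in non-naive CD4 T cells (1.06, from 35 to 29 UMIs among fewer cells). Lower ones were Ccr7 in non-naive CD4 T cells (-1.32), Cx3cr1 in NK-like cells (-1.09) and Cxcr6 in NK-like cells (-1.97). With higher exclusion limits of the gates 2 of the 5 higher pairs remained, both of Cxcr4, while Cxcr3 in B-cell-like cells (0.83), Ccr7 in NK-like cells (0.96) and S1pr5 in non-naive CD4 T cells (0.97) fell short of the rule. Among the lower pairs, Ccr9 in PD-1- non-naive CD8 T cells (-0.99) and S1pr5 in ILC1-like cells (-0.96) did so as well. Ccr2 and Cxcr5 passed the rule in none of the 8 and 5 classes in which they could be judged.

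The comparison of miR-146a-/- with WT, both DEN-CDHFD, asks what differs with the miRNA. Of 72 pairs in 10 classes, 4 were higher (5.56%) and 16 lower (22.2%) past the rule, against 2.33% and 3.11% over all gene and class pairs. Several lower pairs met the minimum of UMIs through DEN-CDHFD WT alone, where they were higher. Among them were Cxcr4 and S1pr1 in ILC1-like cells, Cxcr4 in NKT-like, Ccr7 in NK-like and Cxcr6 in B-cell-like cells. Ccr7 in patrolling monocyte-like cells and S1pr5 in non-naive CD4 T cells were lower pairs of this kind too. Cx3cr1 in naive-like CD8 T cells and S1pr5 in ILC1-like cells, both higher pairs, met it through miR-146a-/- alone. This limits what the counts can show. The median log2 ratio over the receptor pairs was -0.08, against 0.00 over all pairs. Cxcr4 supplied 6 of the 16 lower pairs: it was below DEN-CDHFD WT in 10 of 10 classes judged, with a median log2 ratio of -1.28. The 6 were ILC1-like (19.2 to 2.61 CPM, log2 ratio -2.80, interval -4.13 to -1.85), NK-like (-2.47, -2.99 to -2.02), PD-1+ CD8 (-1.96), NKT-like (-1.96), PD-1- non-naive CD8 (-1.42) and classical monocyte-like cells (-1.13). Among all 17 classes with at least 20 cells in both libraries, the Cxcr4 level was lower in 17.

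In NK-like cells of miR-146a-/- the receptors went different ways. S1pr1 was lower (19.1 to 6.18 CPM, -1.61), Cx3cr1 was higher (30.9 to 89.7 CPM, 1.53, interval 1.25 to 1.84), and Ccr7 went from 23 UMIs to 0, at least 6.49-fold lower when 3 counts are allowed for the 0. Ccr7 was also lower in PD-1+ CD8 (-1.37) and patrolling monocyte-like cells (-2.81), and S1pr1 in ILC1-like cells (-1.81, from 28 to 4 UMIs). Ccr2 was lower in patrolling monocyte-like cells (262 to 125 CPM, -1.07).

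Naive-like CD8 T cells of miR-146a-/- had more Cx3cr1 (3.06 to 13.9 CPM, 2.14) and S1pr5 (16.4 to 58.7 CPM, 1.83) and less Cxcr5 (-1.17). Ccl5, a gene of effector T cells, was 5483 CPM in naive-like CD8 T cells of DEN-CDHFD WT and 10758 in those of miR-146a-/-. S1pr5 was higher in ILC1-like cells (1.18). Non-naive CD4 T cells had less Cx3cr1 (-1.31) and S1pr5 (-2.67), and B-cell-like cells went from 32 Cxcr6 UMIs to 1 (-3.72, interval -9.63 to -1.70). Ccl5 moved in these classes too, from 7100 to 26671 CPM in non-naive CD4 T cells and from 279 to 83.9 in B-cell-like cells. The part of a different make-up of the gated classes, or of RNA from other cells, in these receptor differences was not tested. Cxcr6, which carries the seed match, could be judged in 7 classes and passed the rule in no T cell or innate lymphoid class among them. Its log2 ratio was above 0 in 2 of the 7 and below 0 in 5, with a median of -0.21. The rule cannot show a change smaller than 2-fold, and the part of the seed match was not tested. NK-like cells, with 19 Cxcr6 UMIs in DEN-CDHFD WT and 18 in miR-146a-/-, could not be judged.

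In DKO over miR-146a-/-, which asks what differs with Ccl5 where miR-146a is lost, 84 pairs in 12 classes were judged. Past the rule, 9 were higher (10.7%) and 1 lower (1.19%), against 1.45% and 1.09% over all gene and class pairs. The median log2 ratio was 0.11 over the receptor pairs and -0.01 over all pairs. Most of the higher pairs had fewer than 20 UMIs in miR-146a-/- and met the minimum through DKO alone, where they were higher. The lower pair met it through miR-146a-/- alone. This limits what the counts can show. Cxcr4 was above miR-146a-/- in 12 of 12 classes with a median of 0.68, and past the rule in PD-1+ CD8 (6.94 to 16.4 CPM, 1.24, interval 0.84 to 1.65), ILC1-like (8 to 33 UMIs, 1.40) and NKT-like cells (12 to 30 UMIs, 1.13). NKT-like cells also had more S1pr1 (18.3 to 42.8 CPM, 1.21) and Cx3cr1 (5 to 29 UMIs, 2.26).

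The other pairs rest on few UMIs as well. Ccr7 was higher in pDC-like (5 to 20 UMIs, 2.04) and patrolling monocyte-like cells (10 to 52 UMIs, 1.47), Ccr9 in PD-1+ CD8 T cells (16 to 31 UMIs, 1.28) and Cxcr6 in B-cell-like cells (1 to 22 UMIs, 3.34, interval 1.26 to 9.26). Cx3cr1 in naive-like CD8 T cells was the lower pair (41 to 12 UMIs, -1.41). Cxcr3, Cxcr5, Ccr2 and S1pr5 passed the rule in none of the 10, 5, 12 and 8 classes in which they could be judged.

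**Figure D2:**
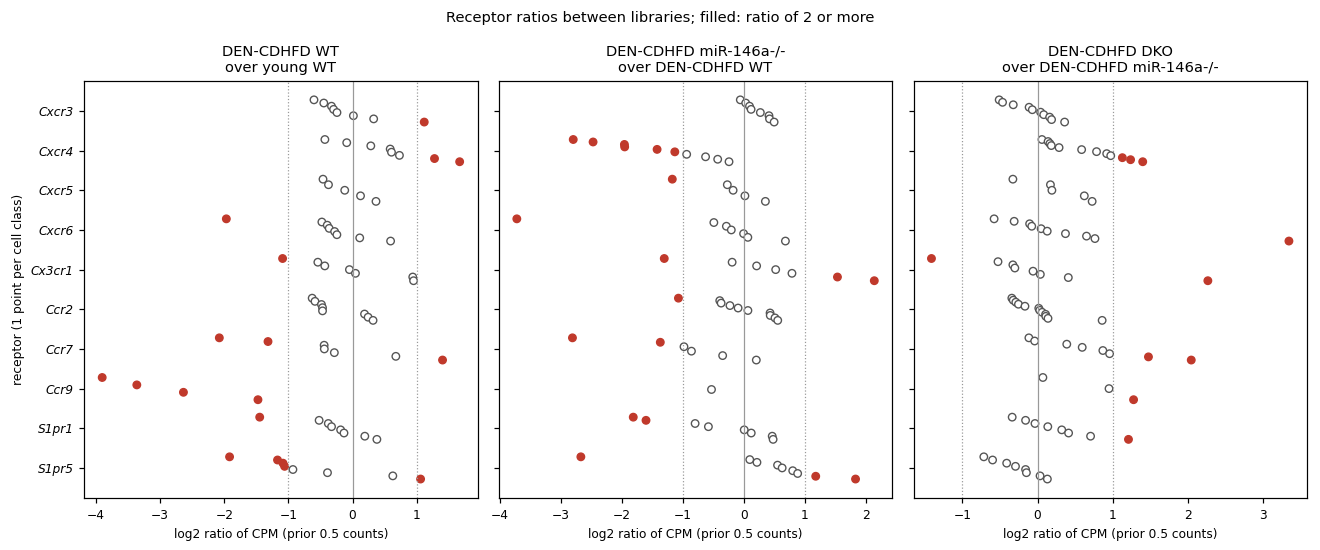
Log2 ratio of the CPM between libraries (horizontal axes, prior of 0.5 counts) for each receptor (vertical axis) in 3 comparisons, with 1 point per cell class judged, filled red at a ratio of 2 or more (dotted lines). Ccr7 in NK-like cells of miR-146a-/- over WT, with 0 UMIs in one library, is not drawn; the Cxcr4 points lie to the left of 0 in miR-146a-/- over WT and to the right of 0 in DKO over miR-146a-/-.

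Genes of the immediate early and heat shock response (Fos, Fosb, Jun, Junb, Egr1, Dusp1, Ier2, Atf3, Nr4a1, Hspa1a and Hspa1b), a list chosen after the data had been seen, were set beside Cxcr4. They are induced by cell isolation as well as in the animal. All 11 were detected, and their sum over all kept cells was 7985 CPM in young WT, 6677 in DEN-CDHFD WT, 3274 in miR-146a-/- and 3757 in DKO, with Junb the most abundant. Over all kept cells 11 of 11 were lower in miR-146a-/- than in DEN-CDHFD WT, and the sum was lower in 17 of 17 classes. In DKO over miR-146a-/- the sum was higher in 15 of 18 classes and Cxcr4 in 17 of 18. In DEN-CDHFD WT over young WT the directions differed, with the sum lower in 14 of 17 classes and Cxcr4 higher in 12 of 17. The part of sample handling, or of this response, in the Cxcr4 differences was not tested.

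**Figure D3:**
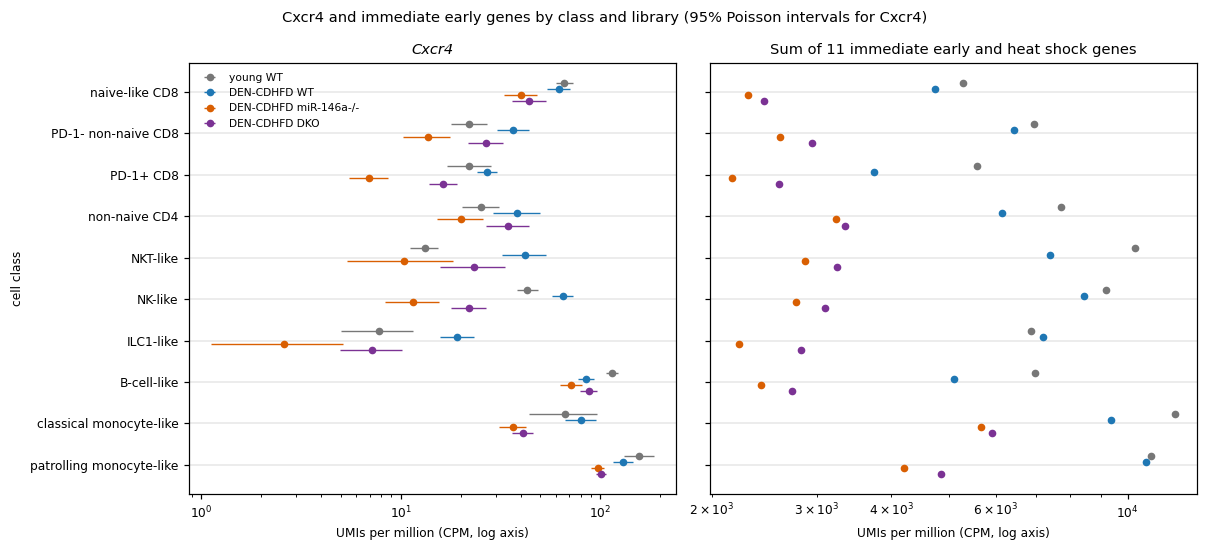
Cxcr4 (left) and the sum of 11 immediate early and heat shock genes (right) in 10 cell classes, in CPM on log axes, with 1 point per library coloured by group and exact 95% Poisson intervals for Cxcr4. The miR-146a-/- library had the lowest Cxcr4 level in each of the 10 classes and the lowest sum in each.

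Pairs of receptors were compared within cells, again at 2000 UMIs per cell. In NK-like and ILC1-like cells together, S1pr5 and Cxcr6 rarely met. Of cells with a Cxcr6 UMI, 3.97% in young WT (10 of 252, interval 1.92% to 7.18%), 0% in DEN-CDHFD WT (of 328, upper limit 1.12%), 0.546% in miR-146a-/- and 1.26% in DKO had an S1pr5 UMI. Of cells without a Cxcr6 UMI the shares were 39.5%, 16.8%, 23.6% and 22.1%. Unthinned, the shares were 9.16%, 1.33%, 2.06% and 2.62% with a Cxcr6 UMI and 70.1%, 43.3%, 52.5% and 51.7% without, and thinning left out 40, 21, 8 and 20 cells. The exit receptor and the retention receptor thus rarely shared a cell, and the part of the NK-like and ILC1-like classes in this was not tested.

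Among CD8 T cells of all 3 classes, Cxcr6 was less frequent in cells with S1pr1. The thinned share was 16.3% with an S1pr1 UMI and 40.3% without in young WT, 34.8% and 54.7% in DEN-CDHFD WT, 29.8% and 52.6% in miR-146a-/-, and 31.1% and 52.8% in DKO, with no overlap of the intervals in any library. Unthinned values were 48.0% and 74.3%, 61.9% and 84.3%, 65.4% and 84.4%, and 60.6% and 81.4%, and 15, 17, 15 and 12 cells were left out by thinning. Ccr7 went the other way, with 40.6% against 20.6% in young WT, 22.8% against 7.52%, 10.5% against 3.15%, and 12.4% against 3.85%. The unthinned Ccr7 shares were 66.1% and 17.6%, 43.4% and 7.93%, 32.6% and 3.17%, and 30.1% and 4.53%. The part of the class make-up in both patterns was not tested.

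Cxcr3 and Cxcr6 shared CD8 T cells in young WT, where 252 of 504 cells with a Cxcr3 UMI and 29.3% of those without had a Cxcr6 UMI. In the treated libraries the shares were close, 54.8% and 52.4% in DEN-CDHFD WT, 50.9% and 50.8% in miR-146a-/- and 56.3% and 48.1% in DKO, where the DKO intervals did not overlap. Unthinned they were 70.1% and 46.9%, 81.8% and 73.6%, 80.3% and 80.8%, and 78.4% and 73.2%, and there the intervals overlapped in DKO but not in DEN-CDHFD WT. In both of these libraries the share with Cxcr3 was the higher one at both depths. Naive-like CD8 T cells, low in both receptors, numbered 559 in young WT and 317, 241 and 191 in the treated libraries, and the part of the class make-up in these shares was not tested. Cxcr6 with and without Cx3cr1 was 34.5% and 36.5% in young WT, 50.6% and 53.2% in DEN-CDHFD WT, 36.2% and 51.6% in miR-146a-/- and 37.0% and 51.8% in DKO. Cells with Cx3cr1 thus had less Cxcr6 in both libraries without miR-146a, on 105 and 100 cells with a Cx3cr1 UMI, while in the WT libraries, with 58 and 77 such cells, the intervals overlapped. Unthinned values were 62.6% and 63.1%, 78.9% and 79.2%, 63.2% and 82.5%, and 64.8% and 78.5%. Cx3cr1 in naive-like CD8 T cells was 4.57, 3.06, 13.9 and 5.08 CPM in the 4 libraries. The part of the class make-up in the Cx3cr1 pattern was not tested either.

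In monocytes, Ccr2 with and without a Cx3cr1 UMI had overlapping intervals in each library for both classes after thinning. In classical monocyte-like cells the thinned shares were 77.8% and 72.7% in young WT, 42.9% and 46.1% in DEN-CDHFD WT, 64.0% and 54.6% in miR-146a-/-, and 57.9% and 51.7% in DKO. In patrolling monocyte-like cells they were 16.7% and 25.0%, 21.7% and 39.7%, 8.49% and 11.9%, and 9.90% and 7.92%. Unthinned, the shares were 95.5% and 90.9%, 86.2% and 50.7%, 90.3% and 54.9%, and 88.7% and 74.7% in classical and 42.3% and 35.3%, 66.7% and 55.4%, 22.8% and 9.55%, and 21.8% and 9.85% in patrolling monocyte-like cells. The shares with Cx3cr1 were then the higher ones throughout, and the part of cell depth in this was not tested. In patrolling cells of 3 libraries and classical cells of DEN-CDHFD WT, the unthinned direction was the opposite of the thinned one. Thinning left out 2, 18, 60.0 and 4 classical and 0, 3, 37 and 48 patrolling monocyte-like cells.

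**Figure D4:**
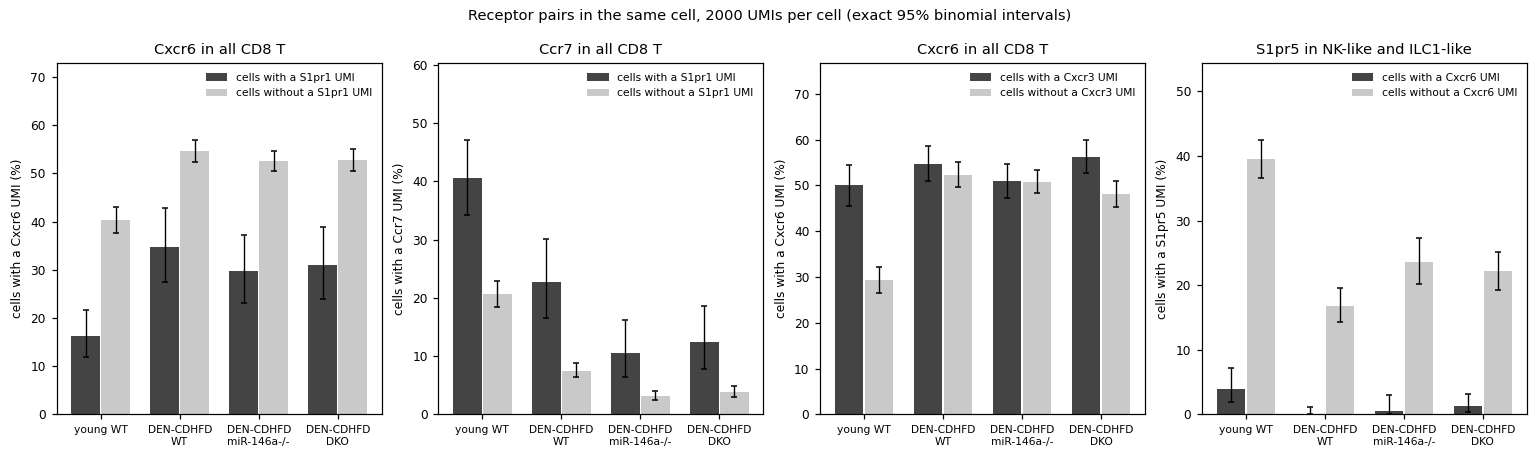
Share of cells (%) with a UMI of one receptor among cells with (dark bars) and without (light bars) a UMI of its partner, at 2000 UMIs per cell, in 4 libraries, with exact 95% binomial intervals. Cxcr6 was less frequent and Ccr7 more frequent in CD8 T cells with S1pr1, and S1pr5 was found in at most 3.97% of NK-like and ILC1-like cells with Cxcr6.

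The wider pathway list of ligands, other receptors and genes of egress and retention held 55 genes, of which 54 were found in the matrices. In DEN-CDHFD WT over young WT, 14 of 220 pairs of such a gene and a class were higher and 14 lower past the rule, 6.36% each, against 2.55% and 2.3% over all gene and class pairs. In miR-146a-/- over WT 13 of 262 were higher and 59 lower, 4.96% and 22.5%, against 2.33% and 3.11%. In DKO over miR-146a-/- 20 of 301 were higher and 8 lower, 6.64% and 2.66%, against 1.45% and 1.09%. No difference between the list and all pairs was tested.

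Among the ligands, Cxcl16, the partner of Cxcr6, was highest in C1q macrophage-like cells among the classes with values in all libraries, at 350.2, 352, 536 and 295 CPM. In classical monocyte-like cells Cxcl16 was 163 CPM in young WT, 241 in DEN-CDHFD WT, 74.3 in miR-146a-/- and 82.4 in DKO. Cxcl9 and Cxcl10, which bind Cxcr3, were highest among those classes, by the mean over libraries, in cDC1-like cells (Cxcl9 173, 288, 142 and 93.8 CPM) and classical monocyte-like cells (Cxcl10 175, 311, 70.3 and 121 CPM). Mature DC-like cells, without a value in young WT, reached 1066 CPM of Cxcl16 and 511 of Cxcl9 in DKO. Cxcl9 in classical monocyte-like cells was 131, 115, 24.2 and 201 CPM. These ligands were lower past the rule in classical and patrolling monocyte-like cells of miR-146a-/- than of DEN-CDHFD WT. The part of the make-up of the classical class, which differed as described above, was not tested. The sum of the 11 immediate early and heat shock genes also went from 9373 to 5656 CPM in the classical class. In the patrolling class it went from 10747 to 4200 CPM, and its part in these ligand levels was not tested.

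Ccl2, the ligand of Ccr2, was 128, 81.04, 29.8 and 18.1 CPM in classical monocyte-like cells. The Ccr7 ligands Ccl19 and Ccl21a and the Cxcr4 ligand Cxcl12 were at or near 0 in these CD45+ cells. Rgs2, a regulator of G protein signalling that shortens receptor signals, was lower past the rule in 8 of 10 classes of miR-146a-/- over WT, 5 of them classes in which Cxcr4 was too. Rgs2 in NK-like cells was 141, 143, 31.4 and 50.6 CPM. Rgs1, of the same family, was 2467, 2651, 1247 and 1958 CPM in ILC1-like cells, where it was highest. Cd69, whose protein pulls S1PR1 from the cell surface, was 290.3, 295, 133 and 209 CPM in NK-like cells. The sum of the 11 immediate early and heat shock genes in NK-like cells was 9177, 8450.5, 2764 and 3096 CPM, and its part in the values of Rgs2, Rgs1, Cd69 and Klf2 was not tested.

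Transcription factors known to control these receptors were described in the same classes. Klf2, which drives S1pr1, was 2467 CPM in NK-like cells of young WT, 1542 in DEN-CDHFD WT, 937 in miR-146a-/- and 1098 in DKO, and in ILC1-like cells 396, 340.1, 96.1 and 109. Tbx21 (T-bet), which drives S1pr5 and Cxcr3, was highest in NK-like cells at 538, 391, 428 and 384 CPM. Zeb2, which acts with T-bet in mature NK cells, was 508, 307, 375 and 351 CPM there, and 27.2 to 44.1 in ILC1-like cells. In NK-like cells S1pr5, Tbx21 and Zeb2 were each highest in young WT. Zfp683 (Hobit), a factor of tissue residence, was highest by the mean over libraries in NKT-like cells, at 219.9, 136, 196 and 137 CPM, with ILC1-like cells at 204, 115, 172 and 140.4. It fell in PD-1+ CD8 T cells from 90.5 CPM in young WT to 10.6, 8.41 and 11.3.

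Similar profiles were sought over the 71 class and library sums, by Pearson correlation of log2(CPM + 1) across 7073 genes. The sums share libraries and are not independent, so r is a description. The genes most like Cxcr6 were Art2b (r = 0.95), Abcb9 (0.94) and Podnl1 (0.93), and those most like Cxcr3 were Traf3ip2 (0.93), Grap (0.90) and Hadhb (0.90). S1pr1 was followed by Gm8369 (0.91), Ddb2 (0.90) and Cd2 (0.90), and S1pr5 by Nrarp (0.81), Ppp2r5a (0.79) and Oxr1 (0.78). For Ccr2 they were Tnfrsf1a (0.81), Ppt2 (0.81) and Hpcal1 (0.79), and for Cx3cr1 Rap1gap2 (0.80), Emilin2 (0.80) and Ap1s2 (0.77). Ccr9 had Foxr1 (0.81), Fads3 (0.80) and Gm14207 (0.79), Cxcr5 Rapgef4 (0.80), Pou2af1 (0.79) and Cpm (0.76), and Ccr7 Dip2b (0.80), Gpr183 (0.73) and Rps19 (0.71). Cxcr4 had the lowest such values, with Xylt1 (0.69), Plk2 (0.68) and Tlr1 (0.68). Among the receptors themselves r was highest between Cxcr3 and Cxcr6 (0.77) and lowest between Ccr2 and Cxcr5 (-0.67).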

How the data were processed

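For each library the authors deposited a table of UMI counts, made with Cell Ranger 7.0.1 on the mm10 build per the matrix headers and the submitters' processing notes, and the matrices were not normalized. The paper's methods name an earlier version of Cell Ranger, and the versions differ in whether intronic reads are counted by default, so whether these were counted is not known here. The libraries held 10985, 9120, 8393 and 10623 cells (young WT, DEN-CDHFD WT, miR-146a-/-, DKO) and 90756272, 103165826, 88706063 and 103147246 UMIs. A cell was kept if it had between 600 and 6000 features and if mitochondrial genes gave no more than 5% of its UMIs. No doublet caller was run, and doublets were limited only by the upper feature limit and by gates that exclude markers of other lineages. UMIs were summed per class and library, and classes under 20 cells gave no value. Intervals were exact Poisson and Clopper-Pearson. Members, lists and gates were chosen with earlier results of these data known. Named genes were every receptor, genes of the pathway list past the size rule or highest in a described class, the 3 most similar genes of each receptor (at least 50 CPM in 1 sum) and Ccl5. Some pathway genes are named at a level without passing the rule. Outside this scheme, leading genes of the classical monocyte-like class and the immediate early and heat shock genes were named with the data already seen. Fyco1 was named for its position. 3′ UTRs came from GENCODE M21 and promoters and miRNAs from RefSeq. The work was done in Python 3.11.15 (numpy 2.4.6, scipy 1.17.1, pandas 2.3.3, matplotlib 3.10.9) and R 4.3.3 with edgeR 4.0.16, and the ratio step was tested on simulated data.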

Additional observations from a re-analysis of the deposited data

Results flagged for a closer look

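Some receptors passed the size rule in opposite directions in different classes of the same comparison, and none of these differences between classes was tested. In DEN-CDHFD WT over young WT, Ccr7 had a log2 ratio of 1.40 in NK-like cells and -2.08 in PD-1+ CD8 T cells, and S1pr5 had 1.06 in non-naive CD4 and -1.92 in PD-1+ CD8 T cells. With higher exclusion limits of the gates the positive ratios were 0.96 and 0.97 and no longer passed the rule. In miR-146a-/- over WT, both DEN-CDHFD, Cx3cr1 had 2.14 in naive-like CD8 and -1.31 in non-naive CD4 T cells, and S1pr5 had 1.83 and -2.67 in the same classes. In DKO over miR-146a-/-, Cx3cr1 had 2.26 in NKT-like and -1.41 in naive-like CD8 T cells. Several of these ratios rest on fewer than 50 UMIs in both libraries, among them Ccr7 in NK-like cells (23 and 12 UMIs) and Cx3cr1 in NKT-like cells (29 and 5 UMIs).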

How the results depend on the processing

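Each of the 10 receptors kept its highest class under other feature and mitochondrial limits, stricter gates and higher exclusion limits. With higher exclusion limits, receptor pairs higher in DEN-CDHFD WT over young WT numbered 2 in place of 5. Without a minimum of UMIs, pairs lower in miR-146a-/- over WT numbered 26 (16 with it), and in DKO over miR-146a-/- 17 were higher (9) and 6 lower (1), since pairs of few UMIs were added. As a mean over cells, 2 pairs were lower in DKO over miR-146a-/- in place of 1, and the cause was not tested. The other counts stayed within 1.5 times. Of 428 recomputed log2 ratios past the rule, 421 stayed within the interval of the main value, 7 moved out of it and 0 changed sign. Of 200 CPM values recomputed 186 stayed within their interval. Shares of cells depend on depth by construction: with other thinning 78 of 80 shares moved out of their intervals, as did at least 1 of the shares in 28 of 28 pairs. Of the pairs whose thinned intervals did not overlap, 0 changed direction. No paired analysis was possible because each group is 1 library. Each value compares libraries and not conditions, free RNA was not removed, and receptor RNA is not receptor protein.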
